A study of Mus musculus with 2 samples.

Results

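The regions described here were stretches of open chromatin inside the second or a later intron of protein-coding genes, in left cerebral cortex of the mouse. They were taken from the shorter of the 2 deposited peak lists of each library. A peak of replicate 1 was kept when it overlapped a peak of replicate 2 by at least 1 bp. Its centre had to lie over 1 kb from every annotated transcription start, outside every exon, within intron 2 or later of the longest transcript of a protein-coding gene, and in no first intron of such a transcript. This gave 7927 regions, or 15.4% of the 51642 shared peaks among the 69208 peaks of replicate 1. Counted the other way, from the peaks of replicate 2, there were 7892 regions, again 15.4%, among 51355 shared peaks of 69128. No measured value other than the calls themselves entered the choice.

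DNase-seq maps the DNA that the nuclease DNase I can cut in nuclei. The series holds 2 libraries, each from the left cerebral cortex of a different female mouse aged 36 days, of the F1 hybrid strain B6CASTF1/J, per the labels. Both are untreated samples of 1 group, so no condition was compared and no test between groups was possible. The tissue was not sorted, so a region open in few cells and a region weakly open in many cannot be told apart. No read totals were used here, and the depth behind each height is therefore unknown. The labels give the animals different numbers under 1 shared donor entry.

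Introns are spliced out of the transcript, but their DNA often holds enhancers, which bind transcription factors and act on a promoter at a distance. First introns lie next to the promoter and commonly carry promoter-linked elements. Later introns lie further into the gene and also hold sites of CTCF, a zinc finger protein that stops the extrusion of chromatin loops by cohesin. A protein bound to open DNA can shield its own few bases from the nuclease, which leaves a short protected stretch called a footprint.

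A set of 9 regions is printed on the plus strand of GRCm38 (the mm10 build) from RefSeq. They were picked for height or for a motif in a footprint, and not as typical regions. Capitals mark bases inside a footprint called in both libraries. The first 4 were the highest later-intron regions by mean rank of height. They lie in introns of Il31ra (an interleukin receptor gene, chr13:112578161-112578320), Gphn (gephyrin, the scaffold of inhibitory synapses, chr12:78350861-78351100), Jarid2 (a cofactor of Polycomb repression, chr13:44869561-44869700) and Igf1r (a growth factor receptor, chr7:68129121-68129320).
Il31ra: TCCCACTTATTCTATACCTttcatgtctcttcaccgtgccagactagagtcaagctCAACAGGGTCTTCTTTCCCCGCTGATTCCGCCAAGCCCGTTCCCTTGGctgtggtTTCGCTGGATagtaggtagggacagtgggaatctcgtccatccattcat
Gphn: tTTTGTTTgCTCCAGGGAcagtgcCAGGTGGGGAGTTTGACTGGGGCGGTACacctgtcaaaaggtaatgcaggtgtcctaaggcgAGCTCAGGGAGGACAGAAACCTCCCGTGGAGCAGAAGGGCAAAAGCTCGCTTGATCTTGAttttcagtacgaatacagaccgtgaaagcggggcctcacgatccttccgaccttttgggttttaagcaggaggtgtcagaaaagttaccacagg
Jarid2: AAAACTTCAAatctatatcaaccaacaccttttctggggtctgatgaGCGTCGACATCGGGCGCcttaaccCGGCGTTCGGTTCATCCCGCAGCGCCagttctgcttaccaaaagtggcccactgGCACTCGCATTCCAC
Igf1r: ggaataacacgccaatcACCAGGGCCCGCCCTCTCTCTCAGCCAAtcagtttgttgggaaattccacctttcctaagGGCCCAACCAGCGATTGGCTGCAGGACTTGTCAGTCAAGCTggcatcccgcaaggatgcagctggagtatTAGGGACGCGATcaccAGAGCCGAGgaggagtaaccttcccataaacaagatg

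The other 5 were each the highest region in which a searched motif lay inside the row and wholly in a footprint of both libraries. Camta1 (a calmodulin-binding transcription activator, intron 9, chr4:151141641-151141840) was picked for the CTCF core and again for the E-box CAGATG. Myo3b (a class III myosin, chr2:70126901-70127100) was picked for AP-1 and Itpkb (an inositol trisphosphate kinase, chr1:180365241-180365460) for RFX. Sept9 (a septin of the cytoskeleton, chr11:117238241-117238440) was picked for the E-box CAGCTG. In Emid1 (chr11:5115021-5115200) the MEF2 pattern matched as CTACCTCTAG, whose middle 4 bases the search left free and which is not the A- and T-rich form that MEF2 is known to prefer.
Camta1: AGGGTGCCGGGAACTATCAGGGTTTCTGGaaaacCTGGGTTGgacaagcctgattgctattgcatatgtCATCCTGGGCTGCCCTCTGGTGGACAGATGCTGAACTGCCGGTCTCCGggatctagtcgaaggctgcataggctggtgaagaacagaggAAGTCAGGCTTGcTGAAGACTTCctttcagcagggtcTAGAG
Myo3b: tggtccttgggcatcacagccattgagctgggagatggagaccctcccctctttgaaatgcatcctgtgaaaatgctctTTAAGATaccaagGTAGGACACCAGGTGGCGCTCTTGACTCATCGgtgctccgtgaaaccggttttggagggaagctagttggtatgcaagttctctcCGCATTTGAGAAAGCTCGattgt
Itpkb: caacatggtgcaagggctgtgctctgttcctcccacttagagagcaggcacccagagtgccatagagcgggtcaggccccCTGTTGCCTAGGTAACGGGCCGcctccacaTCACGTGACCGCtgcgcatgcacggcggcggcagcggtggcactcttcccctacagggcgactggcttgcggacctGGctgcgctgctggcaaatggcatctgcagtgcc
Sept9: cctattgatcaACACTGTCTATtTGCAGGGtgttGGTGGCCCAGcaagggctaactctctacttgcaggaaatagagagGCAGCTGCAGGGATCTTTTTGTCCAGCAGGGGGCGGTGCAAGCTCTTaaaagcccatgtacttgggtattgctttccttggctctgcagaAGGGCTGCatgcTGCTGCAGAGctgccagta
Emid1: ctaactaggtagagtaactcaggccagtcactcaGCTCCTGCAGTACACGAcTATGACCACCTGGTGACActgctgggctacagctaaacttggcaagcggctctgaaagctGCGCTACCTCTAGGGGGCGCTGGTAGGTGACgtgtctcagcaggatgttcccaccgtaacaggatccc

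The Camta1 region holds the CTCF core on its minus strand as GCCCTCTGGTGG, at base 81 of the printed sequence, and the E-box at base 94. The Myo3b match TGACTCA starts at base 115 and the Itpkb match GTTGCCTAGGTAAC at base 83. The Igf1r region had 90 of its 200 bases in footprints of both libraries, and the Camta1 region 112 of 200. In Myo3b and Emid1 the run of capitals with the match also holds sequence close to the CTCF core. The search counted exact matches only and left such sequence out. These footprints therefore cannot be assigned to AP-1 or MEF2. In Sept9 and Camta1 the run of capitals with the E-box also holds a CTCF core match, so these footprints cannot be assigned to the E-boxes either.

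The 3 highest regions stood far above the rest. The Il31ra region had a height of 49.6 in replicate 1 and 24.6 in replicate 2, the Gphn region 22.8 and 12.3, and the Jarid2 region 22.3 and 8.77. The next by mean rank, in Igf1r, had 10.4 and 6.63. The Gphn region aligned to the end of the Lars2 gene at 97.1% identity over 171 bases, and a region in Cd44 did so at 98.7% over 76 bases. No later-intron region aligned over at least 50 bases to mitochondrial DNA, to a part of the 28S ribosomal gene or to the ribosomal block on chromosome 17. Only that part of the 28S gene was searched. Likeness of the Il31ra, Gphn and Jarid2 regions to the rest of it was not examined, so the absence of a match does not speak against a ribosomal sequence there. Whether reads from the sequence like Lars2 contribute to the Gphn height was not tested. Nor was it tested whether ribosomal reads contribute to the heights of any of these 3 regions.

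Below them were the regions in Prdm2 (a histone methyltransferase, 9.11 and 6.22) and Atoh8 (a basic helix-loop-helix factor, 9.82 and 5.92). The 10 highest also included Camta1 (14.4 and 5.39), Nfia (a member of the NFI transcription factor family, 9.83 and 5.71) and Sptbn4 (a spectrin of the axon initial segment, 8.29 and 5.81). The centre of the Sptbn4 region lay in intron 33 of 35, 6 bp from an exon, so the 200 bp row reaches into that exon. The Nfia region lay in an intron of 173 kb. The Prdm2 region was the most GC-rich of the 10, at 73.5% in the central 200 bp. Its centre lay 79 bp from an exon, and the row of 320 bp reaches into it.

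Later-intron regions were lower than promoter peaks and close to first-intron peaks. Their median height was 1.28 in replicate 1 and 0.987 in replicate 2, against 2.21 and 1.63 at promoters and 1.22 and 0.999 in first introns. The height is the authors' signal value, with a scale that is not stated, so it was compared within a library. Relative to the median of all shared peaks the members stood at 83.0% in replicate 1 and 86.3% in replicate 2, a mean of 84.6% ± 2.31 (SD, n = 2). First introns stood at 83.4% ± 5.52 and promoters at 143% ± 0.934. The gap between later introns and promoters was thus larger than the spread between the libraries, and the gap to first introns was smaller than it. Only 4.23% of the regions in replicate 1 and 1.36% in replicate 2 reached the top decile of their list, against 23.6% and 27.4% of promoter peaks.

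The regions were narrow, and few positions around them were called. The median row was 180 bp wide in replicate 1, with a range of 22 to 1160 bp. The widest lay in Cspg5 (a brain proteoglycan gene, 1160 bp), Rsph10b (880 bp) and Kif17 (a kinesin gene, 791 bp), at heights of 0.9, 1.31 and 1.2 in replicate 1. Around the centres, 8.24% of later-intron regions in replicate 1 and 9.93% in replicate 2 were still under a false discovery rate of 0.05 at 500 bp upstream on the reference strand. At promoters 50.7% and 52.9% were. At 1000 bp, 5.13% and 5.37% of later-intron regions were under that rate, against 13.5% and 13.7% of first-intron peaks. In both libraries fewer positions were called around later-intron regions than around first-intron peaks. The profile of footprints had a central peak, with 49.1% and 44.3% of the regions in a footprint at the centre base. It had a shoulder on either side, and at 70 bp downstream 22.1% and 14.3% were in one.

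**Figure D1:**
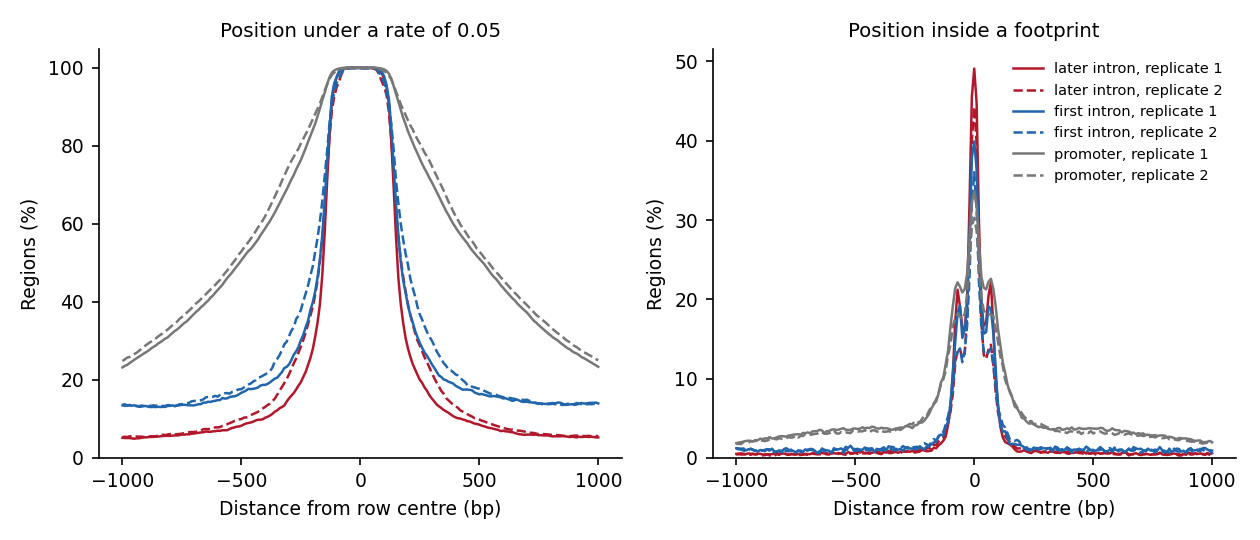
Share of regions (y axis, %) in which the position at each distance from the row centre (x axis, bp) lay under a false discovery rate of 0.05 (left) or in a footprint (right), for rows of replicate 1, with solid lines for calls of replicate 1 and dashed lines for calls of replicate 2. Later introns fall to 5.13% at 1000 bp upstream while promoters remain at 23.2% in replicate 1.

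Almost all later-intron regions carried a footprint. In replicate 1, 96.5% held at least 1 footprint of that library, and 96.6% of the replicate 2 rows did in theirs. First introns held one in 94.0% and 93.3% of rows and promoters in 90.6% and 90.1%. Intergenic peaks were close to later introns, at 95.8% and 95.6%, and so were other intronic peaks, at 95.5% and 95.2%. The share was highest in later introns in both libraries, but only slightly above these classes. A median region had 3 footprints in either library, and 7389 regions (93.2%) had a footprint of each library. The same bases were shielded less often. Of the 22867 footprints of replicate 1 in these regions, 56.7% met a footprint of replicate 2, and 1147 regions held no footprint that did. Regions with the most matched footprints, 7 each, lay in Ss18 (a subunit of BAF chromatin remodelling complexes), Rsph10b (a radial spoke gene of cilia) and Isl2 (a LIM homeobox gene).

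Density had no steady relation to the number of the intron, and fell with its length. Sequence that met the same distance and exon rules came to 632.9 Mb of later intron, 23.2% of the genome, and held 12.5 regions per Mb counted from either library. First introns held 15.4 and 15.3 per Mb, so the density of later introns was 0.814 and 0.813 of theirs. It was 1.37 times that of intergenic sequence in both. Intron 2 held 12.5 per Mb, intron 5 held 11.5, intron 9 held 14.9 and introns beyond the 20th held 10.9. Last introns held 13.6 per Mb. By length the fall was steadier, from 19.0 per Mb in introns under 1 kb to 8.78 in introns over 100 kb. The share of introns with a region went the other way, from 0.786% to 61.0%.

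Density also fell with distance from exons, which was taken from the centre of each region and not from its edge. It was 16.6 per Mb within 100 bp of an exon, 11.9 at over 3 to 10 kb and 6.75 beyond 30 kb. The median region lay 2098 bp from the nearest exon of any transcript and 11893 bp from the nearest annotated start, and 4371 regions were over 10 kb from every start. The furthest from an exon lay in Macrod2 (an ADP-ribose hydrolase gene), Lsamp and Kirrel3, at 159775, 159504 and 151944 bp. Lsamp and Kirrel3 encode neuronal adhesion proteins. The Lsamp region had heights of 1.39 and 1.19, above the median of the members in both libraries.

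**Figure D2:**
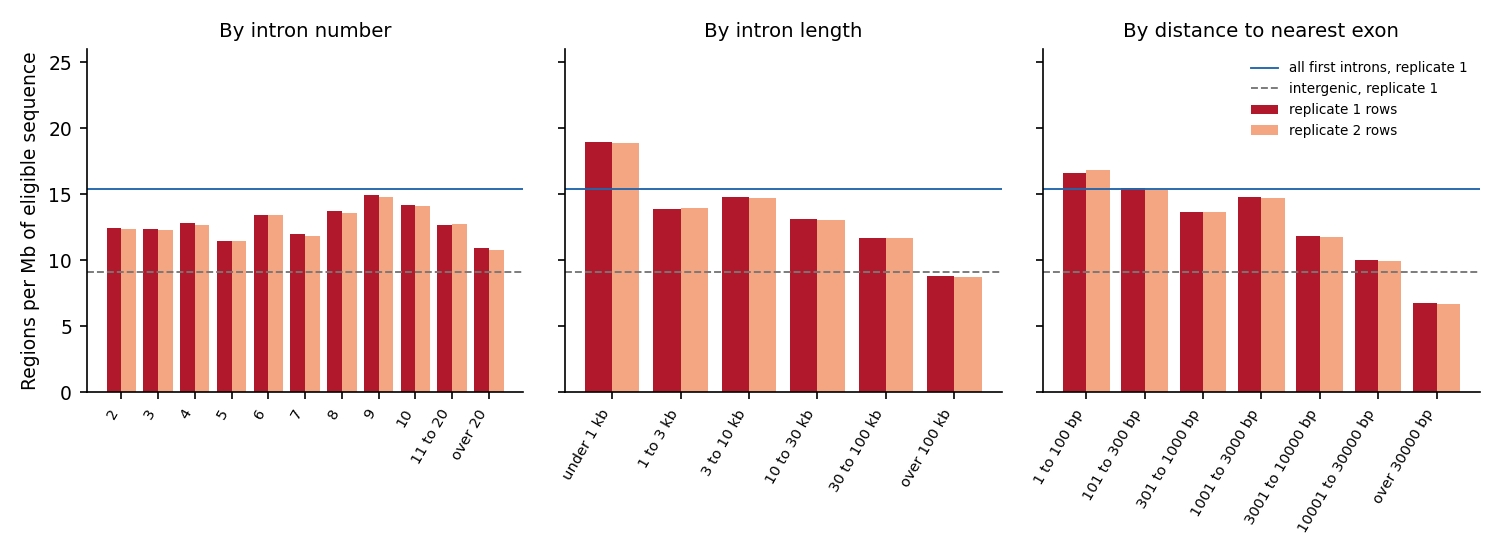
Later-intron regions per Mb of eligible sequence (y axis) by the number of the intron, the length of the intron and the distance to the nearest exon, with dark bars for rows of replicate 1 and light bars for rows of replicate 2. The solid line marks all first introns (15.4 per Mb) and the dashed line intergenic sequence (9.14 per Mb).

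Members just beyond the 1 kb limit were somewhat higher than rows just short of it. The 141 members at most 200 bp beyond the limit had median heights of 1.60 and 1.2, and the 186 otherwise like rows at most 200 bp short of it, which are not members, had 1.32 and 1.07. CpG-rich windows, with over 50% GC and a ratio of observed to expected CpG over 0.6 in the central 200 bp, made up 12.1% of the former and 16.1% of the latter. On the X chromosome the regions were sparse, with 92 in all or 3.16 per Mb, against 13.0 per Mb on autosomes. The autosomes ranged from 9.19 on chromosome 3 to 17.4 on chromosome 11. The X to autosome ratio of density was 0.242 in later introns, 0.455 in first introns, 0.248 in intergenic sequence, 0.442 in exons and 0.761 at promoters. Other intronic sequence had 0.816, from 53 X-linked peaks, which were higher than autosomal ones (2.06 against 1.18 in replicate 1 and 1.41 against 0.954 in replicate 2). X-linked members were also lower, with medians of 0.857 against 1.28 in replicate 1 and 0.617 against 0.999 in replicate 2. These animals are females, in which 1 X chromosome is silenced in each cell, and no male was measured here.

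In base content the regions were unlike promoters. The central 200 bp had a median GC content of 52.0%, against 46.5% in flanks 1 kb away and 64.5% at promoters. Their ratio of observed to expected CpG was 0.256, against 0.293 in first introns and 0.774 at promoters. CpG-rich windows made up 302 of all members (3.81%), against 10.0% of first-intron peaks and 69.1% of promoter peaks. Replicate 2 rows gave 3.71%, 9.88% and 68.3%. Repeat sequence made up 7.91% of the bases of the regions.

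CTCF motifs were the clearest sequence feature. The core searched, CCANNAGNNGGC on either strand, occurred in the central 200 bp of 1598 regions (20.2%, exact Clopper-Pearson 95% interval 19.3 to 21.1, which covers counting error only). Flanks of the same length held it in 1.75%, an 11.5-fold lower share. First-intron peaks held it in 12.4%, intergenic peaks in 19.6%, promoter peaks in 4.76% and all shared peaks in 12.4%. Replicate 2 rows gave 20.1%, 12.4%, 19.7% and 4.58% for later introns, first introns, intergenic sequence and promoters. In this feature later introns were close to intergenic sequence and above first introns. Both counts come from nearly the same regions. With all rows of each library taken alone, 17.1% of later-intron rows in replicate 1 and 14.1% in replicate 2 held the core.

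The search for 18 motifs also covered families known from neurons and glia. Palindromes of NFI, TGGCNNNNNGCCA, occurred in 2.84% of regions against 0.385% of flanks, and the RFX word GTTNCCNNGGNAAC in 0.530% against 0.0505%. AP-1, TGANTCA, the site of Fos and Jun, occurred in 11.8% against 5.56% of flanks and 3.45% of promoters. The E-boxes CAGATG and CAGCTG, bound by basic helix-loop-helix factors, occurred in 25.5% and 20.5%, against 16.7% and 10.4% of flanks. The GC box GGGCGG, which can share letters with the EGR word GCGNGGGCG, was in 8.89% of the regions, 14.1% of first-intron peaks and 49.6% of promoter peaks. Over all shared peaks the shares were 1.95% for NFI, 0.525% for RFX, 7.65% for AP-1, 17.6% and 17.0% for the E-boxes and 28.4% for the GC box.

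Some words were at about the level of the flanks or below it. MEF2, CTANNNNTAG, was found in 3.20% of regions and 2.94% of flanks, and SOX, ACAANGG, in 9.25% and 9.88%. The homeobox word TAATTA (2.52% against 4.96%) and the ROR word TAGGTCA (1.22% against 1.99%) were less frequent in the regions than beside them. Flanks are richer in A and T, and no correction for base content was made. A match is a run of letters and does not show that a factor was bound.

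**Figure D3:**
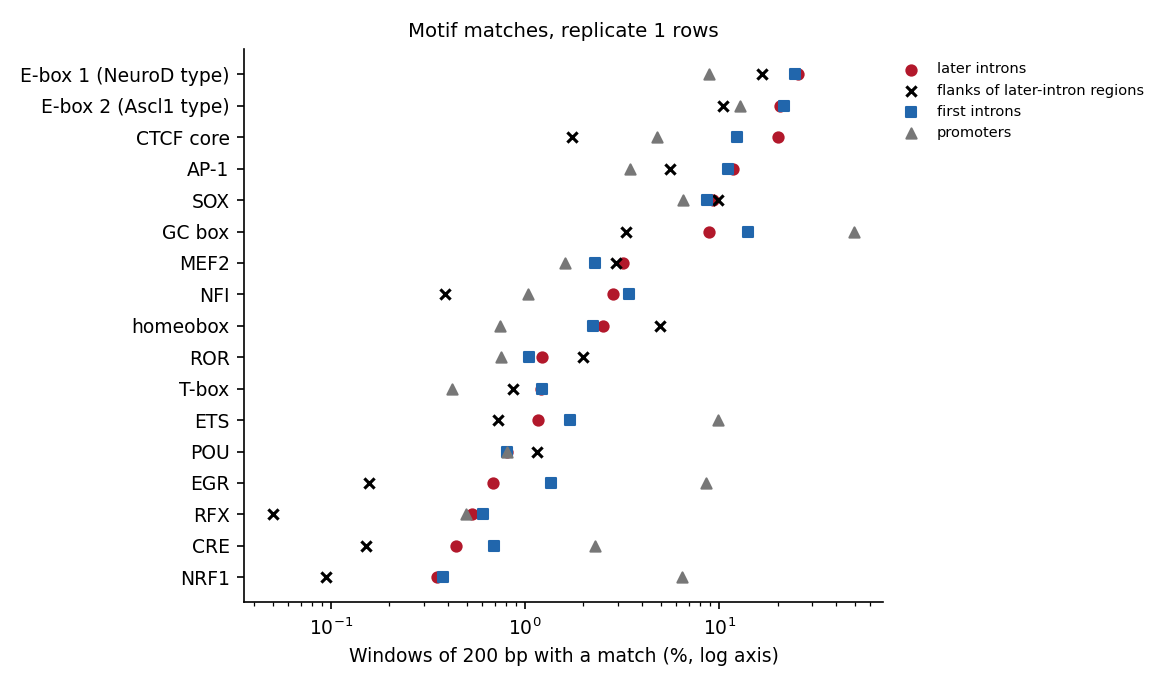
Share of 200 bp windows with a match to each motif (x axis, log scale, %), for later-intron regions (circles), their flanks (crosses), first-intron peaks (squares) and promoter peaks (triangles), all from rows of replicate 1. CTCF core matches are at 20.2% in later introns and 1.75% in flanks, and GC boxes at 8.89% and 49.6% in later introns and promoters.

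Footprints fell on some motifs and not on others. Over all bases of the windows, 22.5% lay in a footprint in replicate 1 and 18.2% in replicate 2. The centre of a CTCF core match did so in 92.0% and 89.6% of 1632 matches. NFI matches reached 91.8% and 79.7% (n = 232), EGR matches 81.0% and 69.0% (n = 58) and NRF1 matches 83.9% and 74.2% (n = 31). E-box CAGATG matches were at 35.9% and 33.7% (n = 2336). AP-1 matches lay below the level of all bases, at 15% and 13.7% (n = 1032), and so did homeobox matches, at 11.1% and 10.6% (n = 207). Matches of the CTCF core also sat centrally, with 83.3% within 25 bp of the row centre, against 29.7% of AP-1 matches.

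Most CTCF words in later introns were closed. Of 39847 matches in eligible later-intron sequence, 1632 lay in a shared peak (4.10%, exact 95% interval 3.90 to 4.29). In first introns 437 of 14985 lay in a shared peak (2.92%, 2.65 to 3.20). The supply of matches was alike, at 63.0 per Mb in later and 66.7 per Mb in first introns. For NFI the open share was 2.26% in later and 3.04% in first introns, for AP-1 0.5% and 0.576% and for MEF2 0.202% and 0.201%. For CTCF the later-intron share was above that of first introns, counted in shared rows of replicate 1. It was near the 4.27% of intergenic and 4.08% of other intronic sequence, and below the 6.19% of exons and 11.1% of promoters. The intervals cover counting error only and treat matches as independent, so they are no test of a difference.

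With members of all genes pooled, the CTCF share rose with the number of the intron. It was 15.3% in intron 2, 17.3% in intron 3, 21% in introns 4 to 5, 22.4% in introns 6 to 10 and 24% beyond intron 10. Rows of replicate 2 gave 15.3%, 17.2%, 20.8%, 22.5% and 23.7%. The GC box went down over the same bins, from 10.8% to 7.25%, while median height varied only between 1.21 and 1.33. Shares of the E-box CAGATG and AP-1 had no such order. Introns of the same gene were not compared with each other, and only genes with many introns enter the last bin. Members with a CTCF core were nearer to exons, at a median of 1363 bp against 2367 bp without one.

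Orientation of the CTCF word was not even. Among the 1617 matches in shared peaks whose host genes lie on 1 strand, the word was on the gene's own strand in 714 and on the other in 903 (44.2% on the same strand, exact 95% interval 41.7 to 46.6). Among all such matches in later-intron sequence, open or not, the balance was the reverse, with 20853 and 18745 (52.7%, 52.2 to 53.2). The open share was therefore 3.42% for words on the gene's strand (3.18 to 3.68) and 4.82% for words on the opposite strand (4.52 to 5.13). The intervals cover counting error only and treat matches as independent, although 31 members held more than 1.

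The share with a CTCF core grew with height. In the lowest quintile of members by mean rank it was 7.5%, and in the highest quintile 38.1%. AP-1 went from 14% to 8.01% over the same quintiles. Members with a CTCF core had median heights of 2.17 in replicate 1 and 1.15 in replicate 2, and those without had 1.16 and 0.954. The difference between them was much larger in replicate 1. On the log2 ratio of replicate 2 to replicate 1, centred on the median of all shared peaks, CTCF members had a median of -0.57 (SD 0.5 over regions) and the others 0.11 (SD 0.503). Of the CTCF members 82.2% lay below 0. First-intron peaks with the core had -0.51 and intergenic ones -0.57, so the shift was not limited to later introns. With 1 library per animal, an animal and its library cannot be told apart, and the depth of the libraries is not known.

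**Figure D4:**
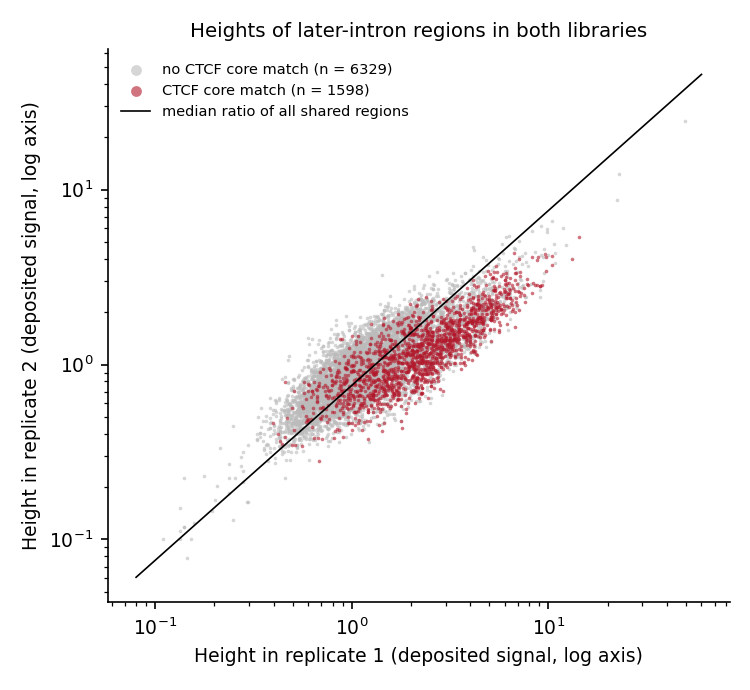
Height of each later-intron region in replicate 1 (x axis) and in replicate 2 (y axis), both deposited signal on log axes, with regions holding a CTCF core match in red (n = 1598) and the others in grey (n = 6329). The line marks the median ratio of all shared peaks, 0.759, and most red points lie under it.

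Heights of later-intron regions agreed less well between the libraries than those of promoters. Spearman's rho over regions was 0.781, against 0.810 in first introns and 0.95 at promoters, as a description with regions of the same 2 libraries as points. The SD of the centred log2 ratio was 0.549, and 93.2% of the regions lay within 1 unit. Among members above the median height of all rows of the list in both libraries, 5 stood furthest towards replicate 1. They lay in Susd1 (6.74 and 1.64), Pde4d (a cyclic AMP phosphodiesterase, 6.21 and 1.58), Ddx56 (an RNA helicase, 4.10 and 1.07), Sh3tc1 (3.61 and 0.942) and Phf12 (4.34 and 1.13). All but the Pde4d region held a CTCF core. Furthest towards replicate 2 was a region in Gm10722 (1.42 and 3.23), every base of which is marked as repeat. It was followed by regions in Aff3 (a subunit of elongation complexes, 1.56 and 2.47), Lingo1 (a membrane protein of neurons, 1.39 and 2.21), Exoc4 (an exocyst subunit, 1.2 and 1.84) and Gm37240 (1.23 and 1.86). None of these 5 held a CTCF core. No difference of a single region can be tested with 1 library per animal.

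The regions lay in 3957 of 17203 protein-coding genes with eligible later-intron sequence (23.0%). Of these, 2303 held 1 region, 1343 held 2 to 4 and 311 held at least 5. A total of 6111 of 137040 later introns had one. Because 114 regions lay in the introns of 2 genes, gene counts add to 8041. Host genes were long, with a median of 47.1 kb of eligible sequence against 11.1 kb in all. Among genes with at least 10 kb of it, a promoter peak was shared by both libraries in 2841 of 3439 hosts (82.6%) and in 4023 of 5609 others (71.7%), with no adjustment for length beyond that limit.

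The largest counts belonged to long genes, but some of the longest genes had few. Dmd held 3 in 2024 kb of eligible sequence and Gpc5 held 4 in 1382 kb. Fgfr2 led with 52 regions, but these lay in 1 intron of 2909 kb of its longest annotated transcript, which contains 29 other protein-coding genes. Gm37240 had 18 in an intron of 1245 kb that contains 4. Those 2 counts say little of the genes themselves. In all, 74 members lay only in introns over 500 kb, and with the longest transcript taken by spliced length 6855 of the 7927 remained in a later intron and 183 lay in a first intron. Other high counts were those of Camta1 (27), Nav2 (a cytoskeletal guidance protein, 19), Auts2 (18), Cdh13 (18) and Msra (a methionine sulfoxide reductase, 18). Of the 27 regions in Camta1, 6 held a CTCF core and 8 an AP-1 match, and heights ran from 0.505 to 14.4 in replicate 1. None of the 18 in Auts2 held a CTCF core.

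The 10 genes densest in later-intron regions were shorter. Serinc2 led with 5 in 20.5 kb of eligible sequence, followed by Wdtc1 with 6 in 25.6 kb and Ctnnbip1, an inhibitor of beta-catenin, with 5 in 22.2 kb. Sfi1, a centrin-binding protein gene, had 7 in 33.7 kb, and Synpo, an actin-associated protein of dendritic spines, 7 in 36.5 kb. The heights in Synpo ran from 0.742 to 4.65 in replicate 1 and from 0.668 to 2.70 in replicate 2. In Wdtc1 3 of the 6 held a CTCF core.

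Gene lists for this tissue differed in how many regions they held per Mb. All protein-coding genes together held 12.5 per Mb. These values describe 2 libraries of 1 group, with no test. Long genes were less dense and more often held a region. Genes with over 100 kb of eligible sequence held 10.4 per Mb, and 78.2% of them held at least 1. Genes with 10 to 30 kb held 14.8 per Mb and those with 30 to 100 kb held 14.9, which is the nearer level for lists of shorter genes. At least 1 region was held by 20.7% of the former and 45.3% of the latter.

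Among receptors, 18 of 24 glutamate receptor genes held 68 regions, or 8.86 per Mb, with a median of 278 kb of eligible sequence per gene. That share of genes, 75%, was near the 78.2% of all genes over 100 kb. Grik4, a kainate receptor subunit, had 9, with heights from 0.711 to 4.34 in replicate 1 and 0.589 to 2.04 in replicate 2. The highest of them in replicate 1, at chr9:42550261-42550460 in intron 15, had its centre 46 bp from an exon and reaches into it. Grid1 had 8 and Gria1, an AMPA receptor subunit, had 6. Grik1 and Gria2 had none in 152 and 104 kb. Of 12 GABA-A receptor genes 5 held 13 regions (6.40 per Mb), led by Gabrb1 with 6, of which 5 lay in intron 5. Gabra3, on the X chromosome, and Gabra4 had none.

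Channel genes were above the overall density, with 102 regions in 28 of 36 genes (14.6 per Mb). Cacna1c, the L-type calcium channel pore, had 13, from 0.669 to 3.20 in replicate 1 and 0.510 to 1.63 in replicate 2. Of those, 6 were in intron 3, and the highest of all 13 in both libraries was there, at chr6:118922981-118923160. None of the 13 had a CTCF core. Kcnma1, a potassium channel, had 8 and Cacna1d 7, while Kcnh5 and Scn1a had none in 254 and 67.9 kb.

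Scaffold and cytoskeleton genes held 128 regions in 28 of 37 genes (14.8 per Mb). Shank2, a scaffold of the postsynaptic density, had 16 in 371 kb, with heights from 0.705 to 3.62 in replicate 1 and from 0.640 to 2.00 in replicate 2. Its highest in replicate 1, at chr7:144074801-144074980, held a CTCF core, and the region highest in replicate 2, at chr7:144316841-144317140, did not. Dlgap1 had 17 and Dlg2 16, the latter in 1825 kb. Syt1, the calcium sensor of vesicle release, had none in 387 kb. Kinases, phosphodiesterases and phospholipases held 119 in 31 of 39 genes (12.3 per Mb), led by Pde4d with 15, and Ntrk3, a neurotrophin receptor, had none in 306 kb.

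Synaptic adhesion and axon guidance genes held fewer regions per Mb than genes with over 100 kb of eligible sequence, and a mixed list of cadherin and catenin genes held more. Synaptic adhesion genes held 153 in 31 of 40 genes, or 7.16 per Mb, with 12 each in Lsamp and Tenm2 and 11 in Nrxn3. In Nrxn3, a neurexin, neighbouring rows at chr12:89377161-89377240 and chr12:89377341-89377440 both met a row of height 1.73 in replicate 2, against 0.985 and 0.961 in replicate 1. Adgrl3 had none in 696 kb. The mixed list, labelled classical cadherins in the figure of gene lists, held 11.3 per Mb. It had 18 in Cdh13, 11 in the catenin gene Ctnna2 and none in Cdh12 or Cdh8. Axon guidance genes held 8.64 per Mb, with 8 in Slit3 and none in Robo2 or Epha5.

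Transcription factor genes of forebrain neurons held 141 regions in 29 of 44 genes, or 15.6 per Mb (16.0 from replicate 2 rows). Auts2 had 18, Myt1l, a zinc finger factor of neurons, 12, and Sox5 10. Foxp2 and Tle4, both of deep-layer neurons, had none in 428 and 142 kb. The Sox5 regions were low, from 0.535 to 1.12 in replicate 1 and from 0.482 to 1.16 in replicate 2.

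Among glial lists, oligodendrocyte lineage genes held 27 regions in 12 of 22 genes (15.9 per Mb and 17.1 from replicate 2 rows). Their median was 22.0 kb of eligible sequence per gene, and genes with 10 to 30 kb held 14.8 per Mb. Mbp, which encodes myelin basic protein, held 9 of the 27 regions in 71.9 kb of the list's 1.69 Mb. Its heights ran from 1.28 to 4.44 in replicate 1 and from 1.07 to 2.47 in replicate 2, so that every one stood at or above the median of all members in replicate 1 and above it in replicate 2. They lay 4 in intron 3, 2 in intron 4 and 3 in intron 6, and 3 held a CTCF core. The highest in both libraries, at chr18:82567801-82567980, had none of the searched motifs. St18 and Enpp2 had no region in 354 and 71.2 kb.

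Microglial genes held 20 in 12 of 19 genes (63.2%, 16.1 per Mb), in a small 1.24 Mb of sequence with a median of 32.7 kb per gene. Of all genes with 30 to 100 kb, 45.3% held a region, at 14.9 per Mb. Only 5 of the 19 genes had a promoter peak shared by both libraries, and Fyb and Cx3cr1 were not among them. Fyb and Dock8 had 3 each. Cx3cr1, a chemokine receptor, also had 3, all in the only later intron of its longest annotated transcript, with 86.6 kb of eligible sequence. The annotated gene spans chr9:119901616-120069879. Whether that intron contains other genes, as in Fgfr2, was not examined, so these 3 may say little of Cx3cr1 itself. Astrocyte genes held 7.46 per Mb, with 4 each in Gpc5 and Npas3. Endothelial and mural genes held 13.2 per Mb, with 5 each in Col4a2 and Vwf.

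Interneuron genes held 4 regions in 3 of 19 genes (2.77 per Mb), in Zfp536 (2), Nxph1 (1) and Reln (1). Adarb2 and Kcnc2 had none in 202 and 185 kb. Genes of liver, muscle and gut, listed as a contrast, held 18 in 9 of 33 genes (4.80 per Mb). They included 3 in Cps1, 3 in Ryr1 and 3 in Dmd. Dmd lies on the X chromosome, where later-intron regions were sparse. It supplies 2024 kb of the 3.75 Mb of eligible sequence in this list, so the low density of the list rests largely on that gene.

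**Figure D5:**
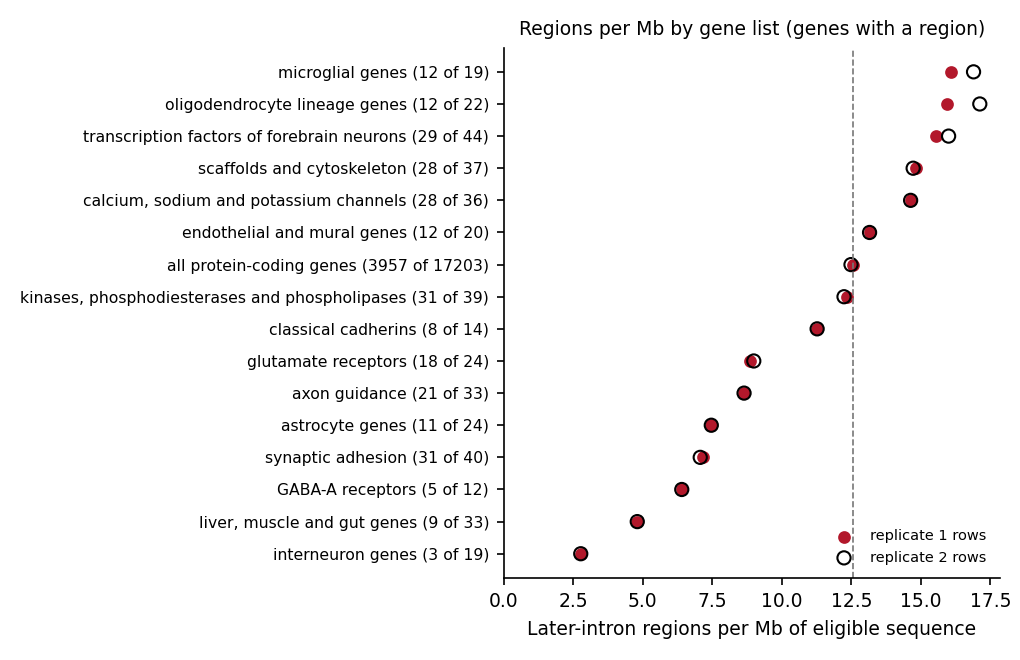
Later-intron regions per Mb of eligible sequence (x axis) in each gene list (y axis, with the number of genes that hold a region and of genes with eligible sequence), filled points for rows of replicate 1 and open points for rows of replicate 2. The dashed line marks all protein-coding genes at 12.5 per Mb, and the lists run from 2.77 (interneuron genes) to 16.1 (microglial genes) in replicate 1.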

How the data were processed

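DNase-seq libraries of left cerebral cortex from 2 female mice (1 per animal, 1 group) were used. The labels and the deposited read-me text give mm10 and per-library calls, and no source used here names the aligner or the peak caller. Peak heights, as deposited, are signal values of unstated scale, and were ranked within a list or compared as log2 ratios centred on all shared peaks. The deposited false discovery rate (a p-value type unit) lists positions under 0.05. The deposited footprint score is constant, so only footprint positions were used. The authors did not pool the animals, per the read-me text.

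Classes were assigned with GENCODE M21 on GRCm38, on which 98.9% of introns in longest transcripts began with GT and ended with AG. The longest transcript was that of largest genomic span. Motifs were searched on both strands in 200 bp windows, with flanks 1 kb to either side. Shares carry exact 95% intervals where given. Python 3.11.15, pandas 2.3.3, scipy 1.17.1, pysam 0.24.0 and blastn were used, and the class and motif functions recovered all 12 positions and 18 motifs of made-up data.

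The regions, gene lists and motifs were chosen with earlier results of these data known. Genes named are the 15 with most regions, the 10 densest (at least 3 regions and 20 kb), 3 per list with most and up to 2 with none in at least 50 kb, the 10 highest regions, and those extreme in ratio, width, footprints or distance from exons. Some of these are not reported here.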

Additional observations from a re-analysis of the deposited data

How the results depend on the processing

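Each of 8 summary values was recomputed under 8 other settings, with 3 more for footprints and motifs, 67 values in all. Of these, 33 moved by no more than the spread between the libraries taken alone (counts, by no more than 1.5 times), and 34 moved further. That spread comes from the same values as the settings that leave out a library, so for those settings it is no independent yardstick. The longer peak lists gave 16591 regions, 19.1% of shared peaks, a density ratio of 0.787 to first introns, footprints in 89.5%, a CTCF core in 13.1% and a median exon distance of 2547 bp. Rows above the median height in both libraries gave 3611 regions in 2332 genes, 12.3% of shared peaks, a relative height of 78.6%, footprints in 99.5%, a CTCF core in 28.6% and an exon distance of 1758 bp. Reciprocal overlap of 50% gave a relative height of 79.4%, a ratio of 0.859, footprints in 98.5% and a CTCF core in 23.0%. A distance of 2 kb from starts gave a share of 14.0%, a ratio of 0.916 and an exon distance of 2526 bp. The spliced-length transcript gave a share of 13.5% and a ratio of 0.807. Rows of replicate 2 gave a relative height of 86.3%, and footprints wholly inside the row 95.4%. Leaving out either library, so that every row of the other counts, gave 11964 to 12446 regions, shares of 17.3% to 18%, relative heights of 83.4% to 86.4%, footprints in 87.5% to 88.9%, a CTCF core in 14.1% to 17.1% and exon distances of 2039 to 2412 bp. Under all of these settings later introns were less dense than first introns and members lower than the median shared peak. The cause of the shifts was not tested. No paired analysis was possible because there is 1 group and no test. Unknown depth limits what heights can show.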
